A study of Mus musculus with 6 samples.

Results

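The flank of Gfi1 on mouse chromosome 5 was described as the ATAC-seq peaks whose midpoint lay from 90 to 120 Mb in the mm10 build, the stretch that surrounds the locus altered in these mice. Of 3003 peaks in this interval, the 13 tested peaks assigned to Gfi1 itself were left out by the rule, and 170 had a mean under 10 normalized reads over the 6 libraries. The remaining 2820 peaks were the members, out of 170733 peaks of the whole table that passed the same minimum and 182166 in all. Gfi1 lies at chr5:107716655-107725805, so 1358 members had lower coordinates than Gfi1 (below it) and 1462 had higher coordinates (above it). Open chromatin was measured in granulocyte-monocyte progenitors (GMPs), sorted by flow cytometry from bone marrow of untreated mice. GFI1-KD mice were homozygous for a human GFI1 allele that gives 10 to 20% of the human protein in place of mouse Gfi1, and GFI1-KI mice were homozygous for human GFI1 in place of mouse Gfi1. Each genotype had 3 libraries. Both genotypes thus carry an altered Gfi1 locus, no mouse with the original locus is in the series, and every sample is labelled as strain C57BL/6. How the chromosome around the altered locus was derived in either line is not in the labels. They also do not state that the 3 libraries of a genotype come from different mice, and the p-values then cover only the variation among these libraries. RNA was not measured, and the level of GFI1 was not checked here.

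GFI1 represses transcription through zinc fingers that bind DNA, and blood progenitors need it to become neutrophils. GMPs are the bone marrow progenitors that give rise to neutrophils and monocytes. In ATAC-seq a transposase cuts accessible DNA, so the reads at a promoter or enhancer report how open it is. The chromosome 5 flank holds a cluster of CXC chemokine genes, the epidermal growth factor ligands Areg, Ereg, Epgn and Btc, a cluster of interferon-induced guanylate-binding protein genes, and Evi5, which lies next to Gfi1 and is named for retroviral insertions found there in mouse lymphomas.

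Few sequences could be shown, because no genome sequence was used here and most of the strongest changes lay away from promoters. The promoter windows below, from 250 bases before to 50 bases after a RefSeq start on GRCm38.p6, lie inside or overlap peaks that were called between the genotypes. Ep400 was taken by a rule on the named peaks, and the other 3 were added after their values were seen, as the largest called decreases and the one called increase at promoters of genes with a name and a mean of at least 100 normalized reads. Each is printed on the strand of its gene. Capitals mark GAGGAA, a core of the site bound by the myeloid factor PU.1, or its reverse complement TTCCTC, and AATCAC, a core of the GFI1 site, was searched in the same way with GTGATT.
Ptpn13, chr5:103424942-103425241, plus strand: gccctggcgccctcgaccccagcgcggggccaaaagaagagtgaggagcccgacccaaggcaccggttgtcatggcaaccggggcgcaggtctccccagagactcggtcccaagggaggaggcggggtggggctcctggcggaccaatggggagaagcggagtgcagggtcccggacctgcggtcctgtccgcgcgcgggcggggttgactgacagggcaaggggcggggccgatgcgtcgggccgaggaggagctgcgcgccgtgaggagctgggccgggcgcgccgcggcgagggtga
Pkd2, chr5:104459207-104459506, plus strand: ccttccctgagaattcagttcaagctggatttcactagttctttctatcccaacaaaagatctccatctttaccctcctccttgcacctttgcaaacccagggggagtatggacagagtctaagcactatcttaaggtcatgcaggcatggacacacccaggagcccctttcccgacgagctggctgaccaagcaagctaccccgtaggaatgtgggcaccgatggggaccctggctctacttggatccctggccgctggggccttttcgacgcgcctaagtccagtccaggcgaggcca
Ep400, chr5:110770668-110770967, minus strand: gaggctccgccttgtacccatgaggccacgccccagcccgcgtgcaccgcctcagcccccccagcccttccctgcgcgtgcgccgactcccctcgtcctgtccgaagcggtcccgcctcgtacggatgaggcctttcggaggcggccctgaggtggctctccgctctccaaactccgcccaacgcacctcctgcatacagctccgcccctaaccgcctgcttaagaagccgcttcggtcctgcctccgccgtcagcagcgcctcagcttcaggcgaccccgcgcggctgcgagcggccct
Antxr2, chr5:98030968-98031267, minus strand: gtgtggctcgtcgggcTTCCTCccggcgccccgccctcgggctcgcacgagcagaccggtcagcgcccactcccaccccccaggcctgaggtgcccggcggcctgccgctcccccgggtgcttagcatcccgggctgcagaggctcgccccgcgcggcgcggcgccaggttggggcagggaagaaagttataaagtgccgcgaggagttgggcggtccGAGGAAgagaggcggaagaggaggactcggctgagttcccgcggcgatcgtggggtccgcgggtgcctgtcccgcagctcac
The Antxr2 window held 2 GAGGAA matches and the other 3 windows held none, and no window held AATCAC. Of all 32851 RefSeq promoter windows, 28.3% held GAGGAA and 10.4% held AATCAC on either strand, and among the 531 windows of the flank the shares were 27.9% and 10.5%. A match describes letters and not a bound site. The peak over the Ptpn13 promoter, which encodes a protein tyrosine phosphatase, had 192, 169 and 190 normalized reads in GFI1-KD and 334, 358 and 350 in GFI1-KI, a log2 fold change of −0.92 ± 0.11 (SE, limma with Benjamini-Hochberg adjustment, adjusted p = 1.76e-05). The Pkd2 promoter, of a calcium-permeable channel gene, had 174, 183 and 201 normalized reads in GFI1-KD and 240, 295 and 273 in GFI1-KI. At Ep400, which encodes a chromatin remodelling ATPase, the values were 2180, 2165 and 2137 in GFI1-KD and 2390, 2476 and 2525 in GFI1-KI. The 3 peaks were lower in every GFI1-KD library than in any GFI1-KI library. The Ep400 change was small (−0.19 ± 0.05, adjusted p = 0.0114) and lost its call with median-of-ratios scaling (adjusted p = 0.0676) and without GFI1-KD 3, GFI1-KI 2 or GFI1-KI 3 (adjusted p = 0.0586, 0.0817 and 0.119), and the Pkd2 call was lost without GFI1-KI 2. The Antxr2 promoter peak, of a gene for a collagen-binding receptor that anthrax toxin uses, had 477, 467 and 530 normalized reads in GFI1-KD and 385, 396 and 407 in GFI1-KI (0.31 ± 0.09, adjusted p = 0.0275). Here the GFI1-KD libraries were the higher ones without overlap, with the call lost without GFI1-KD 3, GFI1-KI 2 or GFI1-KI 3.

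Reads in peaks numbered 16022763 to 19857646 in the GFI1-KD libraries and 19408373 to 27741446 in the GFI1-KI libraries, and the flank held 1.62 to 1.65% of them in each library. A normalized read count is the number of reads in a peak times 1 factor of the library, and 3 reads came to 2.27 to 3.70 normalized reads. Of 8 marker genes of GMPs 7 had tested peaks, with summed levels of 15934 to 16975 in GFI1-KD and 16071 to 17296 in GFI1-KI. Peaks of 4 erythroid marker genes summed to 1616 to 1808 normalized reads in GFI1-KD and 2027 to 2241 in GFI1-KI, with 4 of 23 called lower. Those of 4 megakaryocyte marker genes summed to 2007 to 2367 in GFI1-KD and 2618 to 2913 in GFI1-KI, with 5 of 18 called lower. Among all tested peaks 5.48% were called lower and 4.99% higher. Of 64 GMP marker peaks 1 was called higher and 1 lower. Peaks of 4 B cell marker genes had 2 higher and 3 lower of 45, and none of 16 peaks of 4 T cell marker genes was called. Each erythroid and megakaryocyte marker gene had a peak above 0. The part of erythroid and megakaryocyte cells in the results on the flank was not tested. In sorted bulk cells, fewer cells of a type and less open DNA per cell cannot be told apart.

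Across the flank, GFI1-KD and GFI1-KI differed in both directions, and the share of strong changes lay above that of the whole table. Of the 2820 peaks 379 (13.4%) were called at an adjusted p under 0.05 by limma, against 10.5% of all tested peaks. The share was 10.6% of the 8027 tested peaks on the rest of chromosome 5 and 10.4% of the 159873 on the other chromosomes. Of the called flank peaks 184 were higher in GFI1-KD (6.52% of members, against 4.99% of all tested peaks) and 195 were lower (6.91% against 5.48%), so 48.5% of the calls were higher. With median-of-ratios scaling 247 were higher and 164 lower (60.1% higher), and with equal totals in peaks 248 were higher and 178 lower (58.2%). No called flank peak changed sign under any of the 16 alternatives fitted over the whole table. For the 362 called peaks whose genotypes did not overlap, leaving out a library could not change the sign. The median log2 fold change of the flank peaks was −0.06, against −0.05 for all tested peaks, and the median absolute change was 0.24, against 0.23. The genotypes did not overlap at 904 flank peaks (32.1%, against 28.8% of all tested peaks), among them 362 of the 379 called.

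Changes of at least 2-fold were called at 122 flank peaks (4.33%, against 2.84% of all tested peaks), and changes of at least 4-fold at 17 (0.603%, against 0.162%). On the rest of chromosome 5 only 6 peaks (0.0747%) were called at 4-fold, and on the other chromosomes 253 (0.158%). Of 451 blocks of 5 Mb in the genome with at least 100 tested peaks, 305 held no peak called at 4-fold and 11 held at least 4. Adjacent blocks of chromosome 5, 90 to 95, 95 to 100 and 100 to 105 Mb, were 3 of these 11, with 4, 6 and 4 such peaks. The highest counts were 20 and 16, in adjacent blocks of chromosome 8. In all 16 alternatives the flank had a higher share of called peaks than the whole table, and a higher share at 4-fold. The number of calls leaned on single libraries: it was 176 without GFI1-KI 2 (6.24%, against 4.24% of all tested peaks), 184 without GFI1-KI 3 (6.52% against 4.10%) and 244 without GFI1-KD 3 (8.65% against 6.33%). These comparisons of shares are descriptions with no test.

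In steps of 1 Mb from Gfi1, the calls were denser below the gene than above it. Below Gfi1 231 of 1358 peaks were called (17.0%), with 15 at 4-fold, and above it 148 of 1462 (10.1%), with 2 at 4-fold. The share below exceeded the share above in all 16 alternatives. Of 16 steps below Gfi1 that held tested peaks 15 were over the share of all tested peaks, and of 13 steps above it 6 were, 1 of them with only 15 peaks. Below Gfi1 the share ran from 7.04% at 1 to 2 Mb to 29.8% at 10 to 11 Mb, where 25 of 84 peaks were called, 16 of them higher in GFI1-KD. Steps 14 to 15 Mb below (18 of 72 peaks, 25.0%) and 4 to 5 Mb below (12 of 55, 21.8%) followed, and at 4 to 5 Mb 11 of the 12 calls were lower in GFI1-KD. Between 12 and 14 Mb below Gfi1 there was no tested peak. Above Gfi1 the share ran from 4.35% at 11 to 12 Mb to 16.0% at 12 to 13 Mb, where 4 of 25 peaks were called, all of them lower. Nearness to Gfi1 did not order the shares: they were 14.1% within 1 Mb on either side, 13.3% at 1 to 5 Mb, 11.8% at 5 to 10 Mb and 16.0% beyond 10 Mb. In consecutive blocks of 5 Mb from 90 Mb upward, the 13 Gfi1 peaks included, 16.7%, 20.8%, 16.6%, 14.3%, 10.6% and 9.24% of the tested peaks were called, with 4, 6, 4, 2, 1 and 0 of them at 4-fold.

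**Figure D1:**
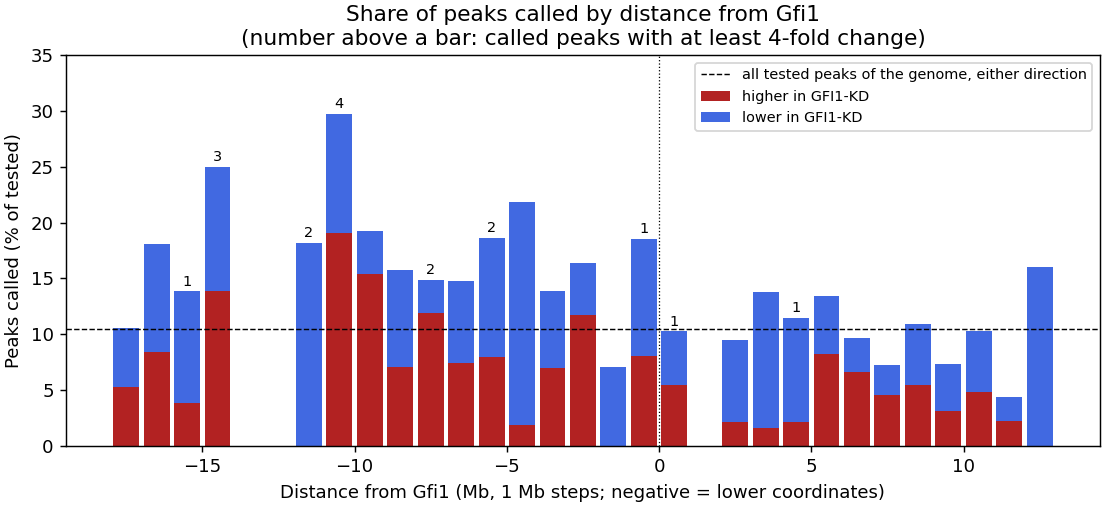
Share of tested peaks called in each 1 Mb step from Gfi1 (percent, y axis; distance in Mb, x axis, negative for lower coordinates), divided into peaks higher and lower in GFI1-KD, with the number called at 4-fold above the bar; steps under 20 tested peaks are not drawn. The highest bar, 29.8%, stands 10 to 11 Mb below Gfi1, and the dashed line marks the 10.5% of all tested peaks.

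The plot of called peaks by distance gives the sizes behind these shares. Within 1 Mb of Gfi1 18 of 38 calls were higher in GFI1-KD, at 1 to 5 Mb 31 of 93, at 5 to 10 Mb 85 of 137 and beyond 10 Mb 50 of 111. Over the flank 184 of 379 calls were higher, and over all tested peaks 8520 of 17872. The balance of directions in the flank moved with the scaling, as given above. Both directions were present on both sides of Gfi1. At 7 to 8 Mb below Gfi1 20 of 25 called peaks were higher, around Cops4, Plac8 and Coq2. In 3 consecutive steps from 2 to 5 Mb above Gfi1 7 of 9, 15 of 17 and 9 of 11 were lower.

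**Figure D2:**
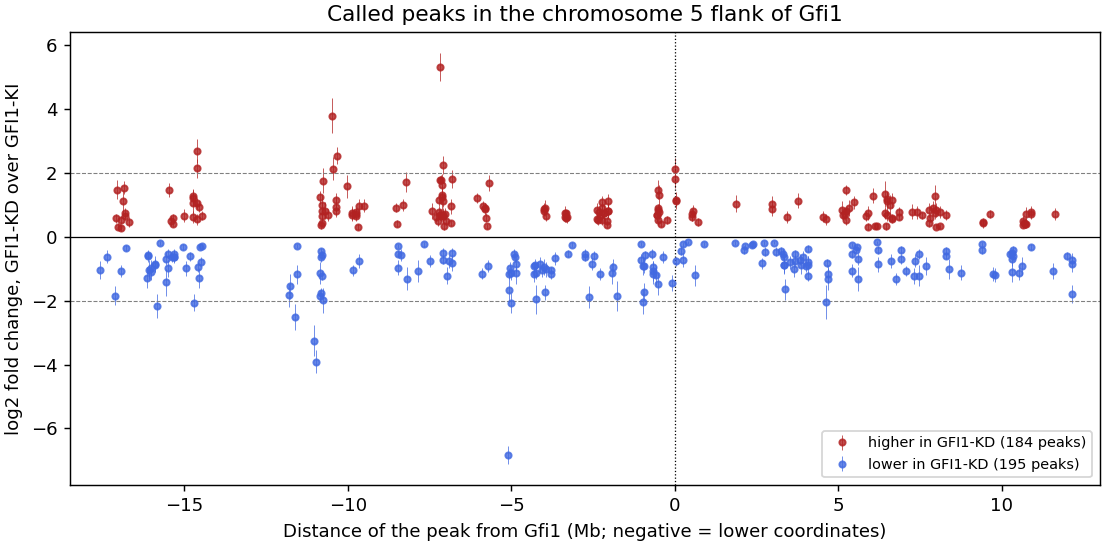
Log2 fold change (GFI1-KD over GFI1-KI, y axis) with its SE for the 184 called peaks that were higher and the 195 that were lower in GFI1-KD, by distance from Gfi1 (Mb, x axis); dashed lines mark 4-fold. Of the 17 peaks beyond these lines 15 lie below Gfi1, and the extremes are an Arhgap24 peak at −6.83 and a Cops4 peak at 5.31.

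Summing the tested peaks of each whole megabase asked whether the total openness of a stretch differed. Of 28 windows with at least 5 tested peaks 8 were called by limma with Benjamini-Hochberg adjustment (28.6%, against 22.6% of all windows), 1 higher (4.71% of all windows were) and 7 lower (17.8%). The window at 97 to 98 Mb was the higher one, with 3408, 3673 and 3981 normalized reads in GFI1-KD and 2967, 2951 and 2865 in GFI1-KI, a log2 fold change of 0.33 ± 0.06 (adjusted p = 2.67e-07). It held 14 higher and 1 lower called peak of 51. The window at 111 to 112 Mb was the most clearly lower one, with 6984, 6452 and 7058 normalized reads in GFI1-KD and 8204, 8286 and 7734 in GFI1-KI (−0.24 ± 0.05, adjusted p = 2.46e-05). In both windows the genotypes did not overlap, and these 2 windows kept their call under every alternative fitted. The other lower windows began at 102, 103, 106, 109, 110 and 119 Mb, with changes from −0.21 to −0.13, and each lost its call without at least 1 library. The number of called windows moved with the scaling, to 11 with median-of-ratios scaling (4 higher) and 13 with equal totals (6 higher). It fell to 3 without GFI1-KI 2 and was 5 without GFI1-KI 1.

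**Figure D3:**
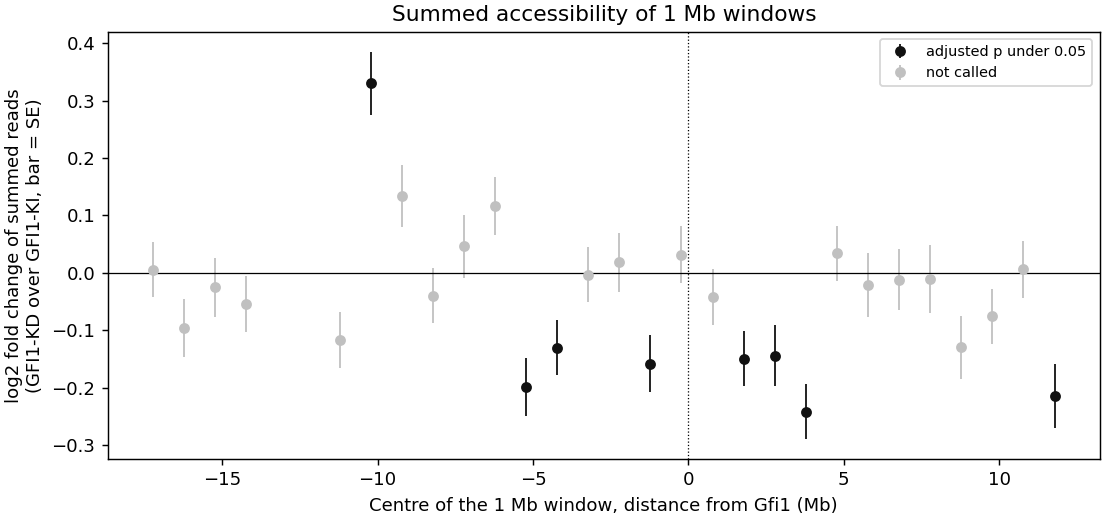
Log2 fold change of the summed normalized reads of each 1 Mb window (GFI1-KD over GFI1-KI, y axis, bars give the SE) by distance of its centre from Gfi1 (Mb, x axis); black points were called. The window about 10 Mb below Gfi1 stands apart at 0.33, and the 7 lower called windows lie between −0.24 and −0.13.

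The 17 peaks called at 4-fold were 9 lower and 8 higher in GFI1-KD, and none of them was at a promoter. The 9 lower peaks summed to 43.9, 55.5 and 63.2 normalized reads in GFI1-KD and 708, 675 and 683 in GFI1-KI. The 8 higher peaks summed to 355, 388 and 434 in GFI1-KD and 59.7, 61.4 and 56.6 in GFI1-KI. At each of the 17 peaks all libraries of one genotype lay above all libraries of the other, which the choice by fold change favours. Of these 17, 3 were near absent in one genotype, meaning at most 5 reads in each of its libraries and a mean of at least 30 normalized reads in the other: 2 in GFI1-KD and 1 in GFI1-KI. In all tested peaks 6 were near absent in GFI1-KD (0.00351%) and 11 in GFI1-KI (0.00644%).

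The strongest change of the flank was at Arhgap24, which encodes a GTPase-activating protein for Rac that binds the actin crosslinker filamin. A peak of 519 bases in its gene body, chr5:102629255-102629773, had 2, 4 and 1 reads in GFI1-KD and 421, 380 and 486 reads in GFI1-KI, or 2.14, 4.94 and 1.11 against 474, 333 and 367 normalized reads. The peak was close to empty in all GFI1-KD libraries and strong in all GFI1-KI libraries. Its fitted log2 fold change was −6.83 ± 0.28 (adjusted p = 3.25e-12), a size that depends on the pseudocount and was −5.69 with a pseudocount of 5 and −7.09 with 0.5. Another Arhgap24 peak at chr5:102697747-102698117 had 5.35, 17.3 and 9.98 normalized reads in GFI1-KD and 39.4, 42.9 and 52.9 in GFI1-KI (−2.08 ± 0.32, adjusted p = 0.000299).

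Fras1, which encodes an extracellular matrix protein of basement membranes, had 2 such peaks in its gene body. The one at chr5:96758214-96758481 had 3.21, 1.23 and 5.54 normalized reads in GFI1-KD and 60.8, 57.0 and 56.6 in GFI1-KI (−3.90 ± 0.36, adjusted p = 1.31e-06). The one at chr5:96689898-96690095 had 1.07, 1.23 and 2.22 in GFI1-KD and 24.8, 29.8 and 15.1 in GFI1-KI (−3.25 ± 0.49, adjusted p = 0.000255). Both were at or near the 3-read floor in GFI1-KD. A peak in Cnot6l, a gene for a deadenylase of the CCR4-NOT complex, had 3.21, 2.47 and 4.44 in GFI1-KD and 15.8, 32.4 and 24.9 in GFI1-KI (−2.51 ± 0.41). A peak 35.6 kb from Shroom3, which encodes an actin-binding protein, had 8.56, 12.3 and 14.4 in GFI1-KD and 41.7, 65.7 and 49.1 in GFI1-KI (−2.06 ± 0.26). These decreases had no overlap between genotypes. Hps4, a gene for a subunit of a complex that makes lysosome-related organelles, held the only lower 4-fold peak above Gfi1, with 6.42, 6.17 and 1.11 in GFI1-KD and 7.88, 33.3 and 24.2 in GFI1-KI, and its call was lost without GFI1-KD 3, GFI1-KI 2 or GFI1-KI 3. The other 2 lower peaks had no gene within 50 kb.

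Among the increases, a peak in the body of Cops4, which encodes a subunit of the COP9 signalosome, was near absent in GFI1-KI. At chr5:100525727-100525980 it had 62.1, 88.9 and 98.7 normalized reads in GFI1-KD and 0, 0.876 and 3.78 in GFI1-KI (58, 72 and 89 reads against 0, 1 and 5; 5.31 ± 0.44, adjusted p = 2.98e-07). The next Cops4 peak, at chr5:100526159-100526656, had 635, 684 and 756 in GFI1-KD and 227, 172 and 200 in GFI1-KI (1.79 ± 0.11, adjusted p = 1.93e-09). The total over the 10 Cops4 peaks was higher in GFI1-KD by 0.37 ± 0.06 on the log2 scale. A weak peak without a gene, at chr5:97241445-97241655, had 22.5, 19.7 and 25.5 in GFI1-KD and 0, 1.75 and 0.755 in GFI1-KI, where it had 3 reads in all. Septin11, of the septin cytoskeleton, had 2 peaks at 4-fold, and the stronger change was at chr5:93112332-93112584 with 49.2, 37.0 and 49.9 in GFI1-KD and 2.25, 12.3 and 7.55 in GFI1-KI (2.68 ± 0.38, adjusted p = 0.00016). At the end of Naa11, an N-terminal acetyltransferase gene, a peak had 48.1, 71.6 and 63.2 in GFI1-KD and 7.88, 13.1 and 8.31 in GFI1-KI (2.54 ± 0.26, adjusted p = 5.03e-06). Apart from the second Cops4 peak, which was open in both genotypes, these peaks had at most 14.3 normalized reads in any GFI1-KI library. That value was at the other Septin11 peak, and all had at least 19.7 in any GFI1-KD library. A peak 12.2 kb from Coq2, a gene of coenzyme Q synthesis, had 61.0, 58.0 and 80.9 in GFI1-KD and 22.5, 8.76 and 11.3 in GFI1-KI (2.24 ± 0.28).

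**Figure D4:**
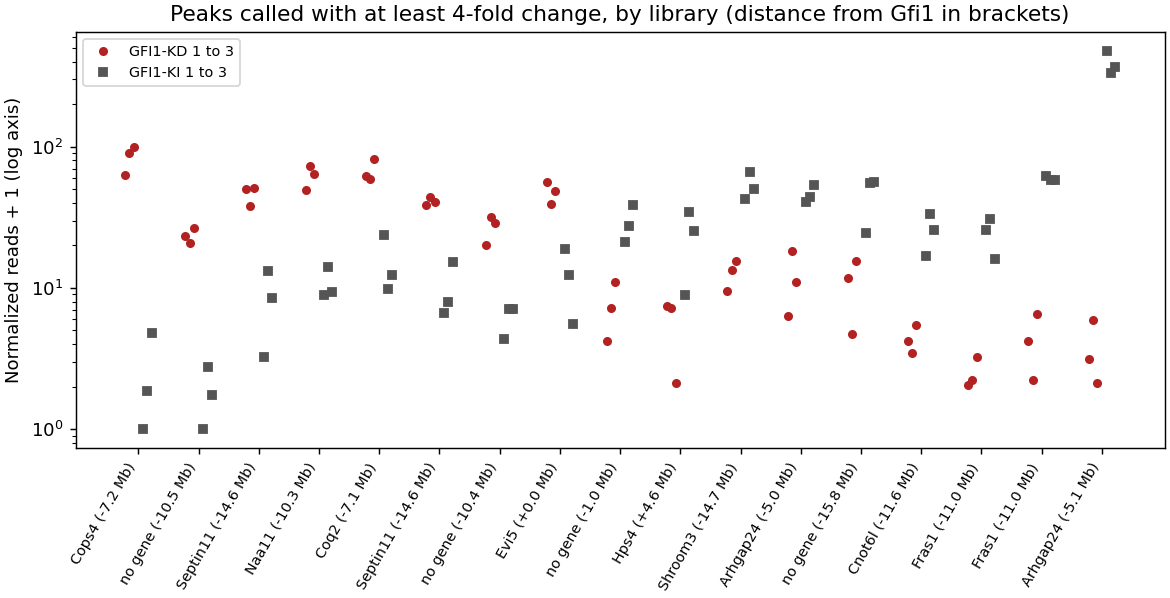
Normalized reads plus 1 in each library (log axis) at the 17 flank peaks called at 4-fold, ordered by log2 fold change, with gene and distance from Gfi1 in brackets on the x axis. Red circles are the 3 GFI1-KD and grey squares the 3 GFI1-KI libraries; the 2 genotypes do not overlap at any of these peaks, and the Arhgap24 peak at the right is near the bottom of the axis in GFI1-KD and at 333 to 474 in GFI1-KI.

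The members nearest to Gfi1, with its own peaks left out, differed between its 2 sides but lay at unlike distances from it. On the lower side the nearest were a pair assigned to Rpap2, which encodes a phosphatase of RNA polymerase II. At chr5:107687864-107688546 the first had 250, 184 and 236 normalized reads in GFI1-KD and 279, 245 and 206 in GFI1-KI (−0.12 ± 0.13, adjusted p = 0.603), and the second, beside it, gave −0.05 ± 0.24 (adjusted p = 0.919). The genotypes overlapped at both. On the upper side the nearest were a pair 8.78 and 8.30 kb from Evi5, which encodes a TBC domain protein. This pair lay closer to Gfi1, at 0.0101 and 0.0106 Mb, between the 2 genes. The peak at chr5:107735729-107736012 had 36.4, 37.0 and 45.5 in GFI1-KD and 13.5, 7.01 and 12.1 in GFI1-KI (1.81 ± 0.28, adjusted p = 0.00035). The peak at chr5:107736261-107736491 had 55.6, 38.3 and 47.7 in GFI1-KD and 18.0, 11.4 and 4.53 in GFI1-KI (2.13 ± 0.34, adjusted p = 0.000429). Both were higher in every GFI1-KD library. Inside Evi5, a peak at chr5:107754731-107755176 had 358, 323 and 316 in GFI1-KD and 206, 135 and 131 in GFI1-KI (1.11 ± 0.14), while one at chr5:107759042-107759630 had 273, 178 and 207 in GFI1-KD and 297, 397 and 427 in GFI1-KI (−0.77 ± 0.14). Of 34 Evi5 peaks 4 were higher and 1 lower, and the gene's total gave 0.13 ± 0.06 (adjusted p = 0.127), which was called with median-of-ratios scaling, with equal totals and without GFI1-KI 1.

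The 17 genes on both sides of Gfi1, from Barhl2 to Dr1, held 228 tested peaks, of which 17 were higher and 14 lower in GFI1-KD (13.6% called, about the 13.4% of the whole flank, against 10.5% of all tested peaks). Their median log2 fold change was −0.05, the same as over all tested peaks. Tgfbr3, which encodes the transforming growth factor beta co-receptor betaglycan, had 44 of these peaks, the most of any of the 17 genes, with 9 higher and 3 lower. The Tgfbr3 total was 4038, 3482 and 3645 normalized reads in GFI1-KD and 3118, 3422 and 2966 in GFI1-KI (0.23 ± 0.06, adjusted p = 0.016). The call for this total was lost without GFI1-KD 3 or GFI1-KI 3. Ccdc18 was higher in total (0.42 ± 0.11), a call lost without GFI1-KD 2. The totals of Zfp644, a zinc finger gene (−0.22 ± 0.06), and Tmed5, a gene of the secretory pathway (−0.17 ± 0.06), were called lower. The Zfp644 call was lost without GFI1-KD 2 or GFI1-KI 2, and the Tmed5 call in 6 of 14 alternatives, among them median-of-ratios scaling. Mtf2, Barhl2, Rpl5, Glmn and Ephx4 had no called peak.

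By gene, 265 genes had at least 1 tested flank peak and 134 of them at least 1 called peak: 42 with higher peaks only, 64 with lower peaks only and 28 with both. The share of all genes with a called peak was not computed. Counts of genes with or without a called peak therefore cannot be set against the whole table. The summed reads of 60 genes were called (22.6%, against 16.6% of all genes), 17 higher (4.12% of all genes were) and 43 lower (12.5%). With median-of-ratios scaling 30 were higher and 29 lower, and with equal totals 31 and 36, so the balance of directions in gene totals depends on the scaling. Without GFI1-KI 2 or GFI1-KI 3 the called totals numbered 35 and 36. Among the 113 genes with at least 8 peaks the highest share called was at Uso1, a gene for a vesicle tethering factor, with 4 of 8 peaks, all lower. Naa11 (4 of 11, all higher), Coq2 (7 higher and 2 lower of 25), Acacb (6 of 17, all higher), Septin11 (5 higher and 2 lower of 21) and Kctd10 (3 of 9, all higher) followed. The totals of Coq2, Acacb, Septin11 and Kctd10 were not called (adjusted p = 0.0643, 0.112, 0.0592 and 0.395, limma). Those of Coq2, Acacb and Septin11 were called with median-of-ratios scaling and with equal totals. Over all 9 Kctd10 peaks the median log2 fold change was −0.05. Acacb encodes the mitochondrial acetyl-CoA carboxylase and Kctd10 an adaptor of a ubiquitin ligase. Of these 113 genes 26 had no called peak, and those with most peaks were Scarb2, of a lysosomal membrane protein (19 peaks), Tpst2, of a tyrosine sulfotransferase (19), Cryba4, of a lens crystallin (15), and, with 14 each, Gltp, of a glycolipid transfer protein, Selplg, of the P-selectin ligand, and Suds3, of a subunit of a histone deacetylase complex.

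All called peaks of Arhgap24 and Ptpn13 were lower in GFI1-KD. Of 37 Arhgap24 peaks 10 were lower, none was higher and the others were not called, with log2 fold changes up to 0.77. Their total was 3446, 3446 and 3462 normalized reads in GFI1-KD and 4558, 4071 and 3951 in GFI1-KI (−0.28 ± 0.06, adjusted p = 0.003), so the GFI1-KD libraries lay close together and below the others. Without the strongly changed peak described above, the other 36 peaks summed to 3444, 3441 and 3461 in GFI1-KD and 4084, 3738 and 3584 in GFI1-KI, still without overlap, and the difference of the means was −353 normalized reads, against −742 with it. Ptpn13 had 6 of 21 peaks lower and none higher, the highest uncalled one at 0.35, with totals of 897, 807 and 808 in GFI1-KD and 1214, 1435 and 1298 in GFI1-KI (−0.65 ± 0.07). Its peak at chr5:103460977-103461197 showed the largest change (−1.95 ± 0.46), from 2 to 4 reads in GFI1-KD, and lost its call without GFI1-KI 2 or GFI1-KI 3. Klhl8, which encodes an adaptor of a ubiquitin ligase, had 2 of 7 peaks lower, and its total was 899, 769 and 894 in GFI1-KD and 1206, 1305 and 1283 in GFI1-KI (−0.57 ± 0.07). Anxa3, of the annexin family of calcium-dependent membrane-binding proteins, had 4 lower and 1 higher of 16. The strongest of these, 8.46 kb from Anxa3 at chr5:96854429-96854834, had 24.6, 37.0 and 24.4 in GFI1-KD and 94.6, 120 and 100.4 in GFI1-KI (−1.86 ± 0.20). All 4 gene totals kept their call under every alternative fitted. Parm1 (4 of 13) and Ttc28 (7 lower and 1 higher of 51) also had lower totals (−0.36 ± 0.07 and −0.21 ± 0.06), the second lost without GFI1-KI 2.

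The increases by gene were led by Naa11, with totals of 662, 886 and 896 normalized reads in GFI1-KD and 545, 529 and 479 in GFI1-KI (0.64 ± 0.10, adjusted p = 8.29e-05). Plac8, which encodes a cysteine-rich protein of myeloid cells, had 4 of 27 peaks higher and none lower. The peak in its body at chr5:100557009-100557401 had 209, 210 and 216 in GFI1-KD and 58.5, 57.8 and 66.5 in GFI1-KI (1.78 ± 0.14, adjusted p = 1.05e-07). Libraries of each genotype were nearly equal at this peak. Antxr2 had 7 higher and 2 lower of 28 peaks (total 0.25 ± 0.06), Wdfy3, of a scaffold protein of autophagy, 6 higher and 1 lower of 28 (0.24 ± 0.06), and Grk3, of a kinase of G protein-coupled receptors, 4 higher of 25 (0.29 ± 0.07). The Antxr2 and Wdfy3 totals were not called without GFI1-KD 3. At the strongest Wdfy3 change, chr5:102046743-102047040, the values were 64.2, 44.4 and 62.1 in GFI1-KD and 22.5, 12.3 and 17.4 in GFI1-KI (1.68 ± 0.25). Gpat3, of an enzyme of glycerolipid synthesis, had a peak at chr5:100894988-100895392 with 34.2, 33.3 and 41.0 in GFI1-KD and 11.3, 11.4 and 6.80 in GFI1-KI (1.81 ± 0.29). Peaks assigned to Bmp2k, of a kinase induced by bone morphogenetic protein, changed in both directions at sites outside the gene body. One peak 45.7 kb from Bmp2k, at chr5:96951835-96952010, had 3.21, 4.94 and 5.54 in GFI1-KD and 20.3, 19.3 and 22.7 in GFI1-KI. Another, 33.0 kb from Bmp2k at chr5:96964530-96964683, had 15.0, 19.7 and 33.3 in GFI1-KD and 6.76, 7.01 and 3.78 in GFI1-KI. The call of this higher peak was lost without GFI1-KD 3.

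**Figure D5:**
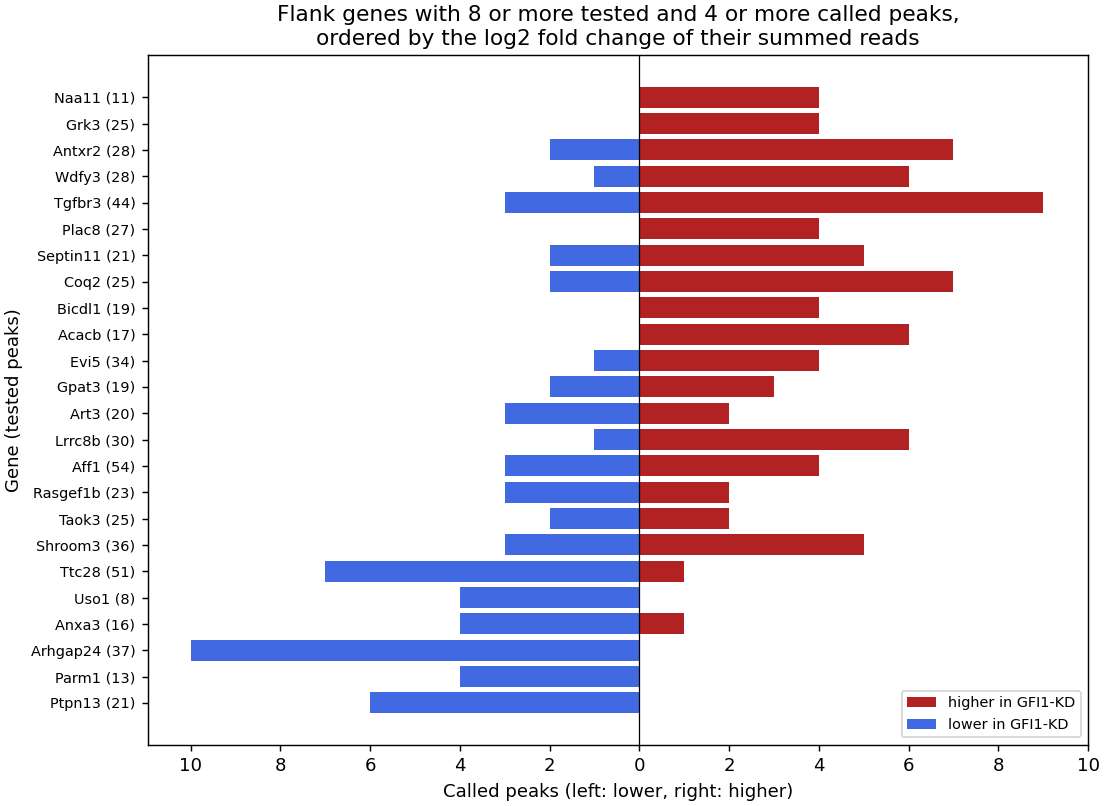
Number of called peaks (x axis, lower in GFI1-KD to the left and higher to the right) for the 24 flank genes with at least 8 tested and at least 4 called peaks, ordered by the log2 fold change of their summed reads, with the number of tested peaks in brackets. Arhgap24 (10 of 37) and Ptpn13 (6 of 21) have lower peaks only, and Tgfbr3 has the most higher ones (9 of 44).

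The gene groups of the flank are given beside the 10.5% of all tested peaks that were called (4.99% higher and 5.48% lower) and the 13.4% of the flank, with no test of a difference between groups. The neutrophil and platelet chemokine genes lie 16 to 17 Mb below Gfi1, and 5 of 7 had tested peaks, with 6 higher and 1 lower of 32 (21.9% called, median log2 fold change 0.27, against −0.05 for all tested peaks). Cxcl1, which encodes a neutrophil attractant acting on CXCR2, had 3 of 10 peaks higher and totals of 561, 505 and 585 normalized reads in GFI1-KD and 372, 382 and 358 in GFI1-KI (0.57 ± 0.09). The strongest change assigned to Cxcl1 lay 29.0 kb from the gene, at chr5:90861900-90862271. Its values were 96.3, 65.4 and 78.7 in GFI1-KD and 24.8, 32.4 and 23.4 in GFI1-KI (1.54 ± 0.21, adjusted p = 8.28e-05). The GFI1-KD libraries were the higher ones without overlap. Cxcl3 had 2 of 6 peaks higher (total 0.31 ± 0.07) and Cxcl2 1 of 4, while none of 8 Cxcl5 peaks was called. Pf4, the platelet factor gene, had 1 of 4 lower, with 41.7, 46.9 and 66.5 in GFI1-KD and 92.3, 117 and 113 in GFI1-KI (−1.06 ± 0.18). Pf4 is also one of the megakaryocyte markers above, whose summed level was lower in GFI1-KD, and the part of that in the Pf4 peak was not tested. Cxcl15 and Ppbp had no tested peak.

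Of the interferon-induced chemokines with Cxcl13, 3 of 4 genes had peaks, 1 higher and 3 lower of 11 (36.4% called, median −0.06). Cxcl13, which encodes an attractant of B cells, fell in total to 35.3, 34.6 and 37.7 normalized reads in GFI1-KD, against 109, 74.5 and 49.8 in GFI1-KI (−1.03 ± 0.23, adjusted p = 0.004). Its 3 peaks were weak, and the GFI1-KI libraries were widely spread but all above the GFI1-KD ones. Cxcl9 had 1 peak in each direction, and neither of 2 Cxcl10 peaks was called. Among the epidermal growth factor ligands 1 of 17 peaks was called (5.88%, below the 10.5% of all tested peaks), near Epgn (0.46 ± 0.15, adjusted p = 0.0446), and this call was lost when any of the 6 libraries was left out. The Epgn total (0.37 ± 0.10) kept its call. The 5 guanylate-binding protein genes with peaks had 1 higher and 3 lower of 31 (12.9%, near the 13.4% of the flank and the 10.5% of all tested peaks). These genes belong to a family with similar sequences, so reads could be shared between them. This was not checked, and the values are uncertain. The totals of Gbp10 (−0.60 ± 0.12) and Gbp9 (−0.27 ± 0.08) were called lower, the second lost without GFI1-KD 2 or GFI1-KI 2. The Gbp9 peak at chr5:105081988-105082194 had 7.49, 3.70 and 7.76 in GFI1-KD and 22.5, 28.9 and 24.2 in GFI1-KI (−1.89 ± 0.35). None of 4 peaks of Oasl2, an antiviral gene, was called, the strongest difference being −0.29 ± 0.16 (adjusted p = 0.262).

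The mineralised matrix genes are known for bone and tooth, and Spp1 (osteopontin) is also made by macrophages. Of their 31 tested peaks 5 were higher and none lower (16.1% called, against 4.99% higher and 5.48% lower among all tested peaks). A peak 41.9 kb from Mepe, at chr5:104380542-104380924, had 376, 395 and 387 normalized reads in GFI1-KD and 278, 203 and 218 in GFI1-KI (0.74 ± 0.11, adjusted p = 0.000308). The 3 GFI1-KD values were close together and above all others. The Mepe total was 0.46 ± 0.08 higher, and Spp1 had 2 of 17 peaks higher with a total of 0.12 that was not called. The genes for the volume-regulated channel subunits Lrrc8b, Lrrc8c and Lrrc8d had 9 higher and 3 lower of 95 peaks (12.6%, near the 13.4% of the flank and the 10.5% of all tested peaks) and no called total. A Lrrc8c peak of 1147 bases, chr5:105557767-105558913, had 640, 706 and 747 in GFI1-KD and 508, 365 and 390 in GFI1-KI (0.74 ± 0.10), and Lrrc8d had 2 lower and no higher peak of 32.

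Cell cycle and DNA repair genes had 3 higher and 4 lower of 72 peaks (9.72% called), and chromatin and transcription factor genes 13 higher and 9 lower of 241 (9.13%), both near the 10.5% of all tested peaks. A peak 8.485 kb from Helq, a DNA helicase gene, had 24.6, 12.3 and 20.0 normalized reads in GFI1-KD and 39.4, 40.3 and 52.9 in GFI1-KI (−1.22 ± 0.26). The total of Chfr, of a mitotic checkpoint ubiquitin ligase, was called lower (−0.21 ± 0.07), a call lost in 7 of 14 alternatives, among them both other scalings. Aff1, of a subunit of the super elongation complex, had 4 higher and 3 lower of 54 peaks. Its peak at chr5:103705838-103706392 had 474, 447 and 430 in GFI1-KD and 296, 245 and 239 in GFI1-KI (0.79 ± 0.10, adjusted p = 5.87e-05), while its total was not called (0.03 ± 0.06). Tbx5, a T-box factor of heart and forelimb, had 3 of 15 peaks lower and a lower total (−0.54 ± 0.11). The signalling and blood cell genes had 44 higher and 34 lower of 396 peaks (19.7% called), a list chosen with earlier results known and including Arhgap24, Ptpn13, Plac8 and Tgfbr3. Of its 18 genes with peaks 5 had a higher and 3 a lower total. None of the 12 peaks of Git2 and 7 of Ulk1 was called.

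Called promoter peaks of the flank were mostly lower in GFI1-KD, as were those of the whole table. Of 225 peaks that overlap a RefSeq promoter window 28 were lower and 2 higher in GFI1-KD (12.4% and 0.889%), and among all 13577 tested promoter peaks the shares were 10.9% and 1.57%, so the flank was close to the rest in this. The other 195 promoter peaks of the flank were not called. Away from promoters 167 were lower and 182 higher of 2595 (6.44% and 7.01%). Among all tested peaks away from promoters the shares were 5.01% and 5.29%. Within 1 kb of a gene end lay 3.80% of the called higher flank peaks, 15.4% of the called lower ones and 15.0% of those not called. Over the whole table these shares were 5.50%, 20.6% and 16.2%. Of the 6 peaks with the highest mean in each 5 Mb of the flank only those at Crlf2 and Ep400 were called. The one over the end of Crlf2, of a cytokine receptor subunit, had 2627, 2176 and 2486 normalized reads in GFI1-KD and 2845, 2785 and 2638 in GFI1-KI (−0.19 ± 0.06, adjusted p = 0.0393), and its call was lost with median-of-ratios scaling, edgeR, DESeq2 and without each library but GFI1-KD 1. The one at Sirt4, of a mitochondrial sirtuin, gave −0.09 ± 0.05 (adjusted p = 0.257). Depth also set what could be called: 6.49% of flank peaks with a mean of 10 to 20 normalized reads were called at a median SE of 0.34, and 19.0% of those at 250 or more at a median SE of 0.09. Over the whole table the shares for the same levels were 4.88% and 16.9%.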

How the data were processed

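ATAC-seq was done on sorted GMPs, 3 libraries per genotype. The deposited table gives a coverage signal, the normalized read count of each consensus peak. Its values show that the authors scaled the counts of a library by a single factor. Per the submitters' processing notes, the tools were HOMER, ChIPseeker, DiffBind, MACS2, Picard, SAMtools, BWA and Trim Galore, on the build mm10. The sources used here do not say how the peaks were merged, how the factors were derived or whether reads were shifted for the transposase. Columns named WT 1 to 3 were read as those of GFI1-KI with the same number, because the title names a wild type beside the genotype low in GFI1. Every value was a whole multiple of its column's step (100% at a tolerance of 0.01), so reads could be recovered.

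Chromosomes carry codes from 1 to 21. In alphabetical order the 18 codes that differ put 16.0% of peaks within 1 kb of a protein-coding gene end, against 2.62% in numeric order, so alphabetical order was used and code 15 is chromosome 5. A peak was given to the RefSeq protein-coding gene whose body it overlapped (the shortest if several) or else the nearest within 50 kb, on the same build. The position of a peak within a gene (exon, intron or untranslated region) was not resolved, and the gene given may not be the one a peak acts on.

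GFI1-KD was tested against GFI1-KI on log2(value + 1) by limma 3.58.1 in R 4.3.3, with a variance trend, for peaks with a mean of at least 10. Benjamini-Hochberg adjustment ran over all 170733 of them, at a threshold of 0.05. Sums over 1 Mb windows (2124) and over genes (17593) were fitted likewise. Fold changes are on this scale, which understates low peaks, and come with their SE. Alternatives were other scalings, pseudocounts, filters and borders, a replicate block, count tests on recovered reads (edgeR 4.0.16, DESeq2 1.42.0) and leaving out each library. Robust variance estimation was added after seeing the data. The fit was tested on simulated data. The members, gene lists and rules were chosen with earlier results of these data known. The naming rule took the 2 peaks nearest to Gfi1 on each side, each list's smallest p and the highest mean per 5 Mb. It also took the 10 largest increases and 10 largest decreases without overlap (1 per gene, predicted genes and peaks without a gene left out). Of these, the Zfp326 peak (−1.85 ± 0.47), the Cxcl13 peak (−1.84 ± 0.36) and some highest-mean peaks were not described above. Other peaks named, among them the rest of those at 4-fold, were chosen after their values were seen.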

Additional observations from a re-analysis of the deposited data

How the results depend on the processing

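Of the 379 called flank peaks 130 were called in every alternative that tested them, as were 24 of 60 gene totals and 2 of 8 windows. None of the 379 peaks changed sign, which leaving out a library could not bring about where the genotypes did not overlap. With median-of-ratios scaling 4 windows and 30 gene totals were higher, and with equal totals 13 windows were called, 6 of them higher, and 31 gene totals were higher. A pseudocount of 5 gave 7 peaks at 4-fold (0.248%, against 0.0469% of all tested peaks) and a median absolute log2 fold change of 0.22. At a mean of at least 50, 246 of 1349 flank peaks were called (122 lower), 1 at 4-fold, with a median of 0.20 and 2 higher windows. The share called was then 18.2%, against 15.3% of all peaks that passed this filter. DESeq2 called 239 peaks (8.48%, against 6.31% of all tested peaks), 88 of them lower. With the borders of the flank 5 Mb further in 270 of 1915 peaks were called (14.1%), and with both 5 Mb further out 464 of 3833 (12.1%). The share was 13.4% with the borders used and 10.5% of all tested peaks. The deviations of same-numbered libraries from their genotype means had correlations of −0.02, −0.04 and 0.06. Only GFI1-KD 3 and GFI1-KI 3 were each other's best match. With 3 libraries per genotype these values cannot settle whether the numbers pair the samples. With a replicate block 392 peaks and 4 windows (3 lower) were called. Leaving out 1 library gave 176 to 433 called peaks (95 to 228 higher, 75 to 205 lower), 14 to 20 at 4-fold, a median of 0.24 to 0.27, 3 to 10 windows (1 to 2 higher, 2 to 9 lower) and 35 to 57 gene totals (9 to 20 higher, 20 to 40 lower), and the cause was not tested. Of 44 peaks taken by the naming rule or called at 4-fold, 37 were called and 7 of these lost the call without 1 library. Sirt4 was called without GFI1-KD 1 (adjusted p = 0.0373, limma). Other peaks described above, such as the Pkd2 and Antxr2 promoter peaks, are not in this count. The uncalled Rpap2 peaks ran from −0.24 to 0.010 and from −0.17 to 0.038 when 1 library was left out, above 0 without GFI1-KD 2 for both and also without GFI1-KI 2 for the second (0.013).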
